A study of Mus musculus with 110 samples.

Results

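The diet by temperature interaction was examined in the liver of mice in which methionine restriction and cold were combined in a 2 by 2 design. It asks where the response to cold differed between the diets: the term is the log2 fold change of cold on methionine restriction minus that on the control diet, and the same number is obtained by subtracting the diet effect at room temperature from that in the cold. A positive interaction places the combined group above the level that the separate effects give when added on the log2 scale, and a negative interaction places it below. All 28 liver libraries of the 110 libraries of the series were used, chosen by tissue and matched to mouse and group by the library number in their descriptions, and 22143 genes with at least 10 counts in total were tested.

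The mice were male C57BL/6N from Taconic, of wild-type genotype, aged 16 weeks at the end and housed singly, and 7 mice made up each group. Every mouse ate a diet without cysteine, which the controls therefore share with the restricted mice. The methionine content in the labels was 0.86% in the control diet (Ctrl) and 0.12% in the restricted diet (MetR). Ctrl_RT and MetR_RT were kept at 22 °C for 7 days, and Ctrl_CE and MetR_CE had 24 h at 4 °C on an additional day, so that the cold groups also ate their diet for 1 day longer and the 2 differences cannot be told apart. Libraries were made from polyA RNA of whole liver and held 6987895 to 33444374 counts, with a median of 14833327, and only MetR_RT replicate 1 had fewer than 10000000. Hepatocyte markers were at high levels in every library, with a sum over 9 genes of 66178 to 101404 CPM (counts normalised to the library size, TMM-corrected). In bulk RNA, fewer cells of a type and less RNA per cell cannot be told apart.

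Methionine and cysteine supply the sulfur of glutathione, the main thiol of hepatocytes. When thiols run short or electrophiles accumulate, the transcription factor NRF2 (gene Nfe2l2) activates genes for glutathione synthesis, glutathione S-transferases and NADPH supply, many of them through the antioxidant response element. Shortage of amino acids also activates ATF4 through the integrated stress response, whereas unfolded proteins in the endoplasmic reticulum (ER) induce chaperones through ATF6 and XBP1. Cold raises the demand for fuel, and hepatic lipid synthesis follows feeding, insulin and the SREBP factors.

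A gene was called when its adjusted p (edgeR quasi-likelihood test, Benjamini-Hochberg over all genes tested) was under 0.05 and its change was at least 1.5-fold, that is 0.585 on the log2 scale. By this rule 234 genes (1.06% of those tested) departed from additivity, 83 with a positive interaction (0.375%) and 151 with a negative one (0.682%). The median size was 0.95 on the log2 scale among positive and 0.91 among negative genes, and 39 and 58 of them departed by at least 2-fold. These are point estimates of genes selected by p and size, which tends to enlarge them. None passed edgeR's glmTreat, which tests against the 1.5-fold threshold itself. The median interaction of all tested genes was -0.03, and 53% of them lay below 0. Of the 22143 tested, 3562 had an unadjusted p under 0.05, as had 2788 of the 12514 with a mean of at least 1 CPM. Every one of the 234 kept its sign when additivity was taken in linear normalised CPM in place of the log2 scale. Each kept its direction when any of the 28 libraries was left out, whereas 102 kept their call in all 28 of these fits. Genes selected by p and size from these same libraries could hardly change sign in such a fit, so the kept direction adds little.

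For most called genes, cold had a called effect on the control diet and none on MetR. Cold changed 2639 genes on the control diet (11.9% of those tested; 1612 up, 1027 down) and 1149 on MetR (5.19%; 609 up, 540 down). Of the 151 genes with a negative interaction, 93 (61.6%) rose in the cold on the control diet only, 16 fell in the cold on MetR only, 6 responded in opposite directions, 1 rose on both diets, and 35 had no called cold response. Of the 83 genes with a positive interaction, 46 (55.4%) fell in the cold on the control diet only and 15 rose on MetR only. These classes describe the same libraries as the interaction and are no separate evidence for it.

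**Figure D1:**
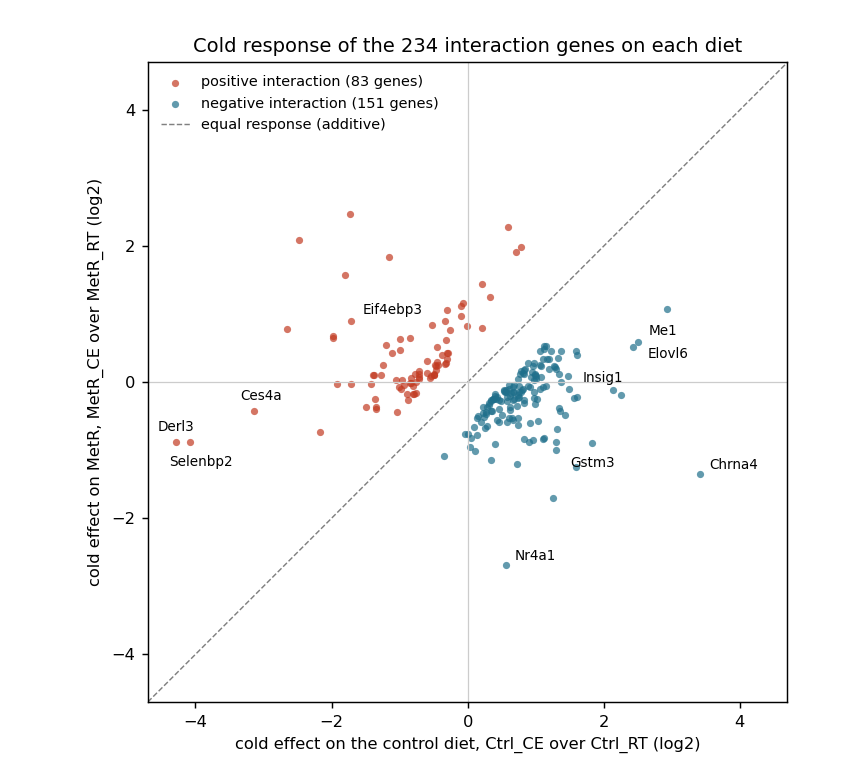
Cold effect on the control diet (horizontal axis, log2 of Ctrl_CE over Ctrl_RT) and on MetR (vertical axis, log2 of MetR_CE over MetR_RT) for the 234 called genes, 1 point per gene, with positive interactions in red and negative ones in blue. Points on the dashed line would respond alike on both diets; the red points lie above it and the blue points below, and 46 red and 93 blue points had a called cold effect on the control diet only.

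Seen from the diet, the pattern was similar. MetR changed 1529 genes at room temperature (6.91%; 638 up, 891 down) and 1165 in the cold (5.26%; 258 up, 907 down). Of the genes with a negative interaction, 74 (49%) rose with MetR at room temperature only, 14 rose with MetR at both temperatures, 21 fell with MetR in the cold only and 40 had no called diet response. Of those with a positive interaction, 44 (53%) fell with MetR at room temperature only. Each called gene was assigned the group whose mean log2 level lay farthest from the mean of the others, however small the margin. Ctrl_RT was the group apart for 134 of the 234, low for 90 negative and high for 44 positive genes. MetR_CE was apart for 15. The directions are no separate result: for a given group apart, the sign of the interaction fixes whether it lies high or low. The shares among all tested genes are not given, so 134 and 15 have no baseline.

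**Figure D2:**
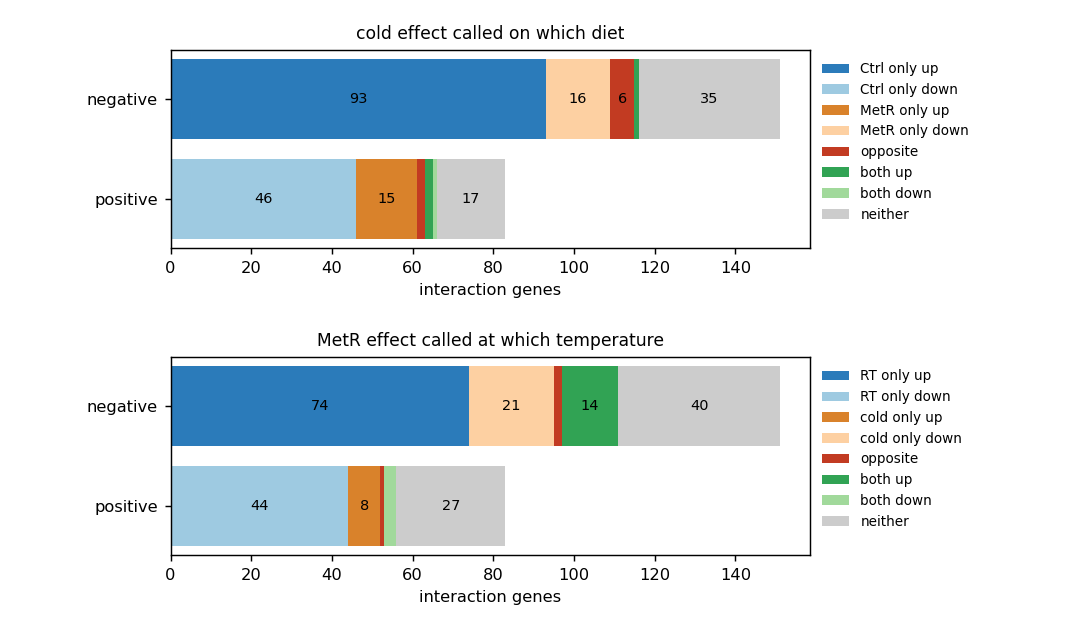
Number of called genes by the contrast in which their simple effects passed the same thresholds, for the cold effect on each diet (upper panel) and the MetR effect at each temperature (lower panel), with 1 bar for the 83 positive and 1 for the 151 negative genes. The longest segments are cold responses on the control diet only (93 and 46 genes) and MetR responses at room temperature only (74 and 44 genes).

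The number of calls moved with single libraries. Positive calls numbered 53 without Ctrl_RT replicate 3, 48 without MetR_RT replicate 5, 49 without Ctrl_CE replicate 2, 39 without Ctrl_CE replicate 7, 54, 47, 51 and 45 without MetR_CE replicates 2, 3, 6 and 7, and 151 without Ctrl_CE replicate 4. Negative calls numbered 93 without Ctrl_RT replicate 6 and without Ctrl_CE replicate 2, 88 without Ctrl_CE replicate 7, 100 without MetR_CE replicate 6 and 250 without Ctrl_CE replicate 4. Ctrl_CE replicate 4 stood apart from the other 6 libraries of its group. Mitochondrial genes took 3.45% of its counts against 4.45 to 5.2% in the others, its 10 most abundant genes took 18.9% against 15.1 to 17.4%, and its TMM scaling factor was 0.899 against 0.971 to 1.03. It also had the lowest score of the group on the first principal component of the 500 most variable genes (-18.6 against -9.16 to 5.23) and the highest on the second (28.8 against 5.37 to 21.2).

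Glutathione S-transferases and NRF2 targets had the highest shares of called members, all of them negative: MetR raised many of these genes at room temperature, cold raised some of them on the control diet, and the called members stayed below the sum of the separate effects in MetR_CE. Of 25 glutathione S-transferases tested, 7 (28%) had a negative and 0 a positive interaction, with a median over all 25 of -0.56, and 24 lay below 0. Of 31 genes for NRF2 targets and NADPH supply, 11 (35.5%) were negative and 0 positive, with a median of -0.56, and 28 lay below 0. The 2 lists share Mgst3, which was not called. All 7 called transferases, and 9 of the 11 called NRF2 genes, rose with MetR at room temperature, and 5 and 7 rose in the cold on the control diet. Of all 22143 genes tested, 638 and 1612 did so. The interaction call uses these same differences, so the counts among called genes are no separate evidence.

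Gstm1, a mu-class transferase that conjugates glutathione to electrophiles, was the most abundant of the called mu-class genes. Its lowest, median and highest normalised CPM were 289, 409 and 547 in Ctrl_RT, 1859, 2161 and 2600.3 in MetR_RT, 485, 647 and 1072 in Ctrl_CE and 1189.6, 1343 and 1652 in MetR_CE. No MetR library overlapped any control library, MetR_RT lay wholly above MetR_CE, and the control groups overlapped. The additive expectation for MetR_CE was 3607 CPM, against a measured mean of 1401. The interaction was -1.36 ± 0.20 (log2 ± SE, adjusted p = 0.000997, edgeR), from cold effects of 0.74 on the control diet and -0.62 on MetR, both called. For the genes that follow, values for a group are likewise its lowest, median and highest library, and values in brackets are the interaction with its SE and the adjusted p.

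Gstm3, of the same gene cluster, had 9.17, 13.4 and 24.5 CPM in Ctrl_RT, 63.8, 90.5 and 214 in MetR_RT, 22.8, 36 and 60.1 in Ctrl_CE and 39.3, 65.1 and 84.4 in MetR_CE. It was low in every Ctrl_RT library relative to both MetR groups, while its cold groups overlapped with their room-temperature groups on either diet. The interaction was -2.17 ± 0.33 (adjusted p = 0.00159), with cold effects of 1.29 on the control diet and -0.87 on MetR, both called. Gstm4 (-0.99 ± 0.14, adjusted p = 0.000786), Gstm6 (-0.92 ± 0.15, 0.00244) and Gstm2 (-1.01 ± 0.20, 0.00833) of this cluster were called as well, as were the alpha-class genes Gsta2 (-1.92 ± 0.40, 0.0104) and Gsta3 (-0.84 ± 0.18, 0.0116), where Gstm2, Gsta2 and Gsta3 are named after their values were seen. Mu-class and alpha-class genes are close paralogs, and Salmon, which the deposited table credits, divides the reads they share by an estimate, so the split among paralogs is uncertain.

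**Figure D3:**
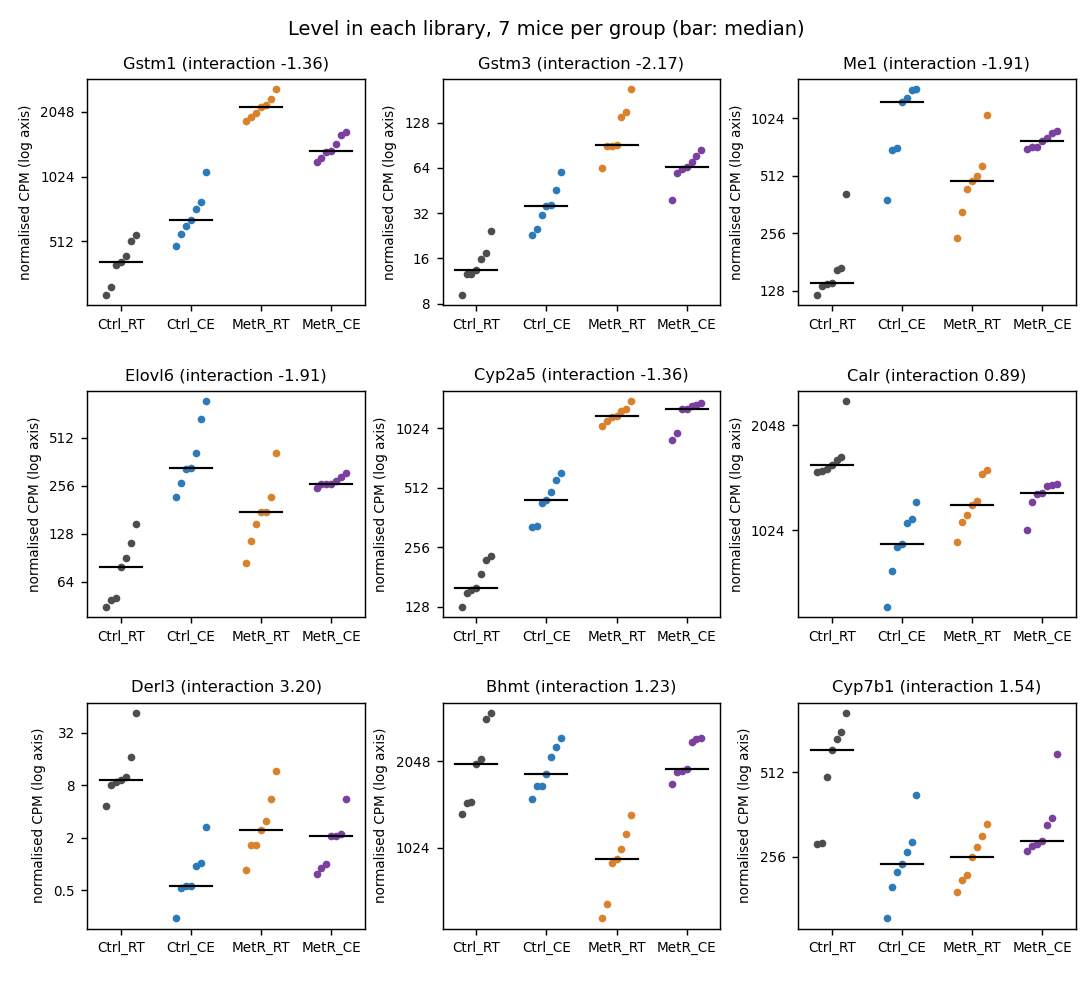
Normalised CPM (log axis) of 9 called genes in each library, with 7 mice per group as points and the group median as a bar. For Gstm1, Gstm3 and Cyp2a5 the Ctrl_RT median is lowest and both MetR medians exceed both control medians, for Me1 and Elovl6 the Ctrl_CE median is highest, for Calr, Derl3 and Cyp7b1 the Ctrl_RT median is highest, and for Bhmt MetR_RT is low.

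Among the NRF2 genes, Pir, an iron-binding nuclear protein, had 11.3, 14 and 18.5 CPM in Ctrl_RT, 39.6, 42.8 and 45.8 in MetR_RT, 15.2, 18.8 and 21.9 in Ctrl_CE and 27.7, 33.1 and 35.6 in MetR_CE. MetR_RT exceeded all other groups without overlap and MetR_CE exceeded both control groups. Its interaction was -0.78 ± 0.12 (adjusted p = 0.00222). Gclc, the catalytic subunit of the rate-limiting enzyme of glutathione synthesis, had 206, 361 and 409 CPM in Ctrl_RT, 607, 701 and 798 in MetR_RT, 284, 378 and 499.9 in Ctrl_CE and 369, 395 and 501 in MetR_CE. MetR_RT lay above every library of the other groups, and MetR_CE overlapped both control groups. Its interaction was -0.90 ± 0.18 (adjusted p = 0.00908).

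Tkt, transketolase of the pentose phosphate pathway, had 109, 124 and 184 CPM in Ctrl_RT, 207, 285 and 346 in MetR_RT, 150.1, 262 and 293 in Ctrl_CE and 253, 267 and 314 in MetR_CE. Both MetR groups lay above Ctrl_RT, Ctrl_CE overlapped Ctrl_RT through 1 high Ctrl_RT library (184 CPM in replicate 5, the next being at 127), and the interaction was -0.94 ± 0.18 (adjusted p = 0.00699). Akr1c19, an aldo-keto reductase (-1.11 ± 0.19, 0.00331), and Txnrd3, a thioredoxin reductase (-0.93 ± 0.18, 0.00699), were also negative, each with Ctrl_RT below Ctrl_CE without overlap. Of the rest, named after their values were seen, Htatip2 had -1.13 ± 0.22 (adjusted p = 0.00699) and Ugdh, which supplies UDP-glucuronic acid, -0.74 ± 0.15 (0.0102).

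Nfe2l2, the gene of NRF2 itself, had 48.3, 64.5 and 73.4 CPM in Ctrl_RT, 70.6, 81.7 and 92.6 in MetR_RT, 66.6, 77.5 and 91 in Ctrl_CE and 60.3, 69.6 and 77.9 in MetR_CE. All groups overlapped, and the interaction of -0.61 ± 0.12 (adjusted p = 0.00833) was near the fold threshold and kept its call in 22 of the 28 fits with 1 library left out (-0.66 to -0.56, adjusted p up to 0.0165). Nqo1, a quinone reductase and a standard NRF2 target, had 1.68, 2.20 and 5.74 CPM in Ctrl_RT, 11, 12.2 and 14.6 in MetR_RT, 4.91, 6.37 and 9.69 in Ctrl_CE and 9.17, 11.7 and 17.1 in MetR_CE. Its MetR groups lay above Ctrl_RT without overlap, and its interaction of -1.18 ± 0.29 (adjusted p = 0.0355) kept its call in 17 of the 28 fits with 1 library left out (-1.38 to -1.06, adjusted p up to 0.062). Abcc4, an efflux transporter (-0.98 ± 0.26, 0.0437), kept its call in 9 of the 28 fits with 1 library left out (-1.08 to -0.87, adjusted p up to 0.0819). All 7 transferases kept theirs in 28 of 28, and the list of NRF2 genes held 8 to 11 called members.

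The promoters of the called genes of these 2 lists were searched for the core of the antioxidant response element, TGACNNNGC, on both strands, since this element is the textbook site of NRF2. RefSeq windows (GRCm38.p6, 250 bases before to 50 after each start) were matched by symbol for 17 of the 18 genes; Gclc had none. The core was present in at least 1 window of 8 of the 17 genes (47.1%), against 16.5% of the 13118 tested genes with a window and 12.4% of all 32851 windows. The lists hold textbook NRF2 targets, so a high share is no result of this experiment. Genes can have several windows, and a match is a description and not a bound site. Stretches around 5 matches in 4 of the genes, upstream of the start and with the core (or its complement) in capitals, are shown 5′ to 3′ on the strand of the gene.
Nfe2l2 (chr2:75704855-75704913, minus strand): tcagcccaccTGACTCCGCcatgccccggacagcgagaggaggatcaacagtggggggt
Gsta3 (chr1:21240424-21240512, plus strand): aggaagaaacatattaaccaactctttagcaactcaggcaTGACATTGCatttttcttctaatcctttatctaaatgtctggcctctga
Htatip2 (chr7:49759423-49759511, plus strand): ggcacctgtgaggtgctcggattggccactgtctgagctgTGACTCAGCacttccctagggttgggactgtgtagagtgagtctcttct
Ugdh (chr5:65435888-65436014, minus strand): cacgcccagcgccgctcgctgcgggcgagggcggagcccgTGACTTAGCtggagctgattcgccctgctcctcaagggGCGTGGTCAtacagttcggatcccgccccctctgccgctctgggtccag
In these windows the first core began 240 bases before the start in Nfe2l2, 121 in Gsta3 and 49 in Htatip2, and Ugdh held 2 cores, 132 and 94 bases before the start. The windows of Gstm1, Gstm3 and Gstm4 held no match, which says only that these letters are not in them.

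Phase I and II enzymes of xenobiotic metabolism were mostly negative where called: 10 of 76 tested were negative and 1 positive (14.5% in all), with a median of -0.19. Cyp2a5, a cytochrome P450 of coumarin and nicotine metabolism, had 128, 159 and 230.0 CPM in Ctrl_RT, 1044, 1176 and 1400.0 in MetR_RT, 325, 442 and 609 in Ctrl_CE and 894, 1282 and 1369 in MetR_CE. Ctrl_RT lay below Ctrl_CE, and both lay below the MetR groups, without overlap, while MetR_RT and MetR_CE overlapped. Cold raised it on the control diet (1.37 ± 0.14) and not detectably on MetR (0.01 ± 0.14), and the interaction was -1.36 ± 0.19 (adjusted p = 0.000786).

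Aox1, aldehyde oxidase, had 57.2, 75.2 and 111 CPM in Ctrl_RT, 176, 204 and 258 in MetR_RT, 85.5, 122 and 154 in Ctrl_CE and 167, 198 and 203 in MetR_CE. Both MetR groups exceeded both control groups without overlap, and the interaction was -0.81 ± 0.16 (adjusted p = 0.00908). The carboxylesterases Ces1c (-0.65 ± 0.13, 0.00918) and Ces1f (-0.92 ± 0.19, 0.00918) were negative too, and Ces1c was not called without Ctrl_CE replicate 1 (27 of 28 such fits, -0.71 to -0.58, adjusted p up to 0.0192). Cyp2c29 differed in form: its levels were 242.1, 289.9 and 504 CPM in Ctrl_RT, 250.4, 349.9 and 521 in MetR_RT, 516, 652 and 1006 in Ctrl_CE and 194, 377 and 441 in MetR_CE, with Ctrl_CE above Ctrl_RT and MetR_CE without overlap, and its interaction of -1.12 ± 0.27 (adjusted p = 0.0305) kept its call in 23 of the 28 fits with 1 library left out (-1.22 to -1.0, adjusted p up to 0.0563). Ephx1, Ces1g, Ugt1a5 and Ugt1a6a, named after their values were seen, were negative as well. Of these, Ugt1a6a kept its call in 14 of the 28 fits with 1 library left out (-1.07 to -0.88, adjusted p up to 0.0697). Cyp2c55 is described with the opposite responses. The only positive member was the carboxylesterase Ces4a, with 3.41, 8.70 and 18.7 CPM in Ctrl_RT, 0.412, 0.521 and 1.58 in MetR_RT, 0.356, 0.960 and 1.72 in Ctrl_CE and 0.307, 0.620 and 0.837 in MetR_CE, in which Ctrl_RT lay above all other libraries and the interaction was 2.72 ± 0.58 (adjusted p = 0.013). The Ces4a medians in Ctrl_CE, MetR_RT and MetR_CE were under 1 CPM, near the floor, where a further fall could hardly be measured. Ces1, Cyp2c, Cyp2a and Ugt1a genes have near-identical copies or shared exons, so their split is uncertain.

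In lipogenesis, cold raised many genes of fatty acid and triglyceride synthesis on the control diet and few on MetR. Of 35 tested members, 20 rose in the cold on the control diet and 0 fell, whereas on MetR 4 rose and 1 fell. Fewer genes rose on MetR among all 22143 tested as well, 609 against 1612 on the control diet. The interaction was called for 6 (17.1%), all negative, with a median of -0.71 over the 35, and 29 lay below 0. The list held 3 to 13 called members when 1 library was left out: 3 without Ctrl_CE replicate 7, 12 without Ctrl_CE replicate 4 and 13 without Ctrl_RT replicate 5.

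Me1, malic enzyme, which makes NADPH for fatty acid synthesis and is also in the NRF2 list, had 122, 141 and 408 CPM in Ctrl_RT, 243, 479 and 1066 in MetR_RT, 382, 1242 and 1449 in Ctrl_CE and 707, 774 and 882 in MetR_CE. Every MetR_CE library exceeded every Ctrl_RT library, and otherwise the groups overlapped, Ctrl_RT and Ctrl_CE through 1 high Ctrl_RT library (408 CPM in replicate 5, the next being at 169). Cold effects were 2.5 ± 0.30 on the control diet and 0.59 ± 0.28 on MetR, and the interaction was -1.91 ± 0.40 (adjusted p = 0.0116). Elovl6, an elongase of saturated fatty acids, had 44.7, 78.8 and 147 CPM in Ctrl_RT, 84.5, 176 and 413 in MetR_RT, 217, 329.8 and 871 in Ctrl_CE and 249, 264 and 307 in MetR_CE. Both cold groups lay above Ctrl_RT without overlap, and MetR_RT overlapped every group. The interaction was -1.91 ± 0.42 (adjusted p = 0.0171).

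Insig1, which holds SREBP precursors in the ER, had 98, 199 and 257 CPM in Ctrl_RT, 129, 300.1 and 430.0 in MetR_RT, 287, 582 and 702 in Ctrl_CE and 184, 243 and 400.4 in MetR_CE. Ctrl_CE exceeded Ctrl_RT without overlap, and the MetR groups overlapped each other. Cold effects were 1.49 ± 0.26 and -0.10 ± 0.26, and the interaction was -1.59 ± 0.37 (adjusted p = 0.022). Lpcat3, a phospholipid acyltransferase, was called at -0.62 ± 0.14 (0.0191) and was not called without Ctrl_RT replicate 1 or Ctrl_CE replicate 2 or Ctrl_CE replicate 7 (25 of 28 such fits, -0.68 to -0.55, adjusted p up to 0.042). Gpam, the first acyltransferase of triglyceride synthesis (-1.38 ± 0.33, 0.028), was not called without MetR_RT replicate 3 or Ctrl_CE replicate 2 or Ctrl_CE replicate 7 (25 of 28 such fits, -1.50 to -1.20, adjusted p up to 0.0586). The lipid storage regulator Pparg (-0.65 ± 0.16, 0.0369) kept its call in 15 of the 28 fits with 1 library left out (-0.70 to -0.57, adjusted p up to 0.0633). The last 2 are named after their values were seen.

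Cholesterol synthesis and SREBP2 targets had the same sign and 0 calls: 24 of 27 lay below 0, the median was -0.45 and 6 had an unadjusted p under 0.05 with edgeR, and DESeq2 called 2 and limma voom 0. Of the 27, cold raised 18 on the control diet and 7 on MetR, beside 1612 and 609 of all genes tested. Sc5d, of the late steps of cholesterol synthesis, had an interaction of -0.93 ± 0.29 (adjusted p = 0.0855).

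**Figure D4:**
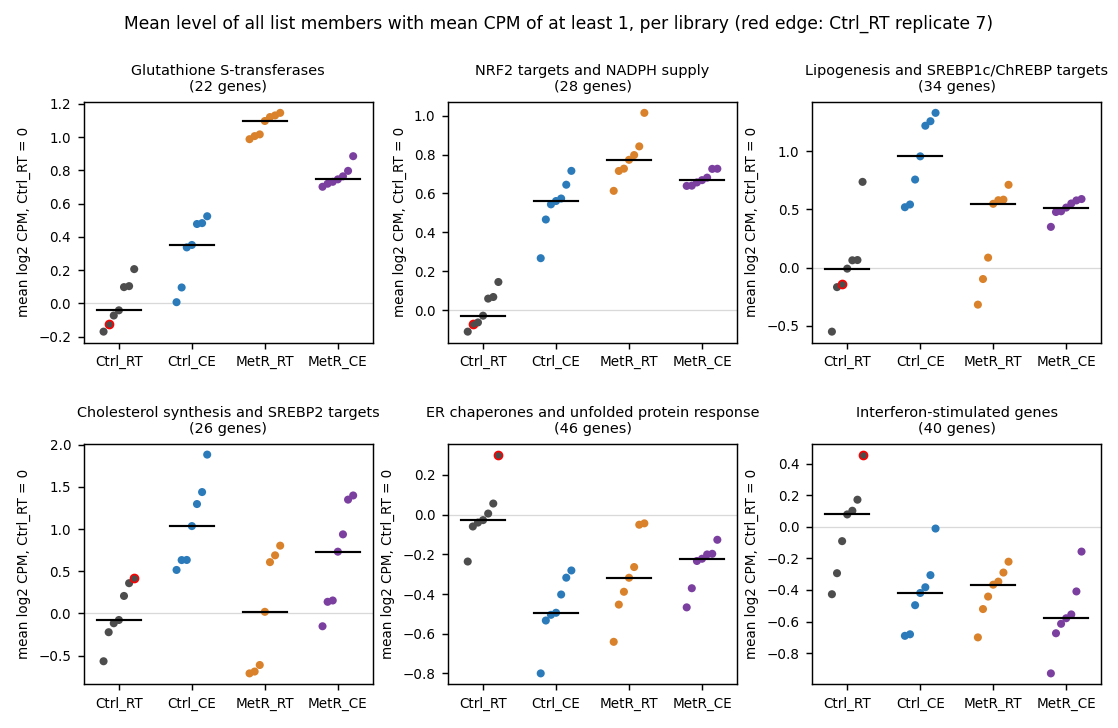
Mean log2 CPM over all members of 6 lists with a mean of at least 1 CPM, per library and relative to the mean of Ctrl_RT, with points for mice, bars for medians and a red edge on Ctrl_RT replicate 7. The median of the glutathione S-transferases is 0.35 in Ctrl_CE, 1.10 in MetR_RT and 0.75 in MetR_CE, that of lipogenesis 0.96, 0.55 and 0.52, and that of the ER chaperones -0.49, -0.32 and -0.22.

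ER chaperones held the most positive genes of any list: many fell in the cold on the control diet, and on MetR none did. Of 46 tested, 12 (26.1%) were positive and 0 negative, with a median of 0.34, and 5 lay below 0. Cold lowered 16 of the 46 on the control diet and raised 0, and on MetR it raised 1 and lowered 0. Among all genes tested it lowered 1027 on the control diet and 540 on MetR. MetR lowered 9 at room temperature and 0 in the cold, beside 891 and 907 of all genes tested. Among the 12 called genes, 10 fell in the cold on the control diet, and for 9 of the 12 Ctrl_CE and Ctrl_RT did not overlap. The interaction call uses this same difference, so these counts are no separate evidence. The share of genes without overlap among all those tested was not computed. Some gaps were narrow: the lowest Ctrl_RT and highest Ctrl_CE library had 137 and 136 CPM for Manf and 940 and 922 for Hsp90b1.

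Calr, calreticulin, a lectin chaperone of glycoproteins, had 1501, 1572 and 2399 CPM in Ctrl_RT, 944, 1205 and 1522 in MetR_RT, 617, 934 and 1236 in Ctrl_CE and 1028, 1309 and 1388 in MetR_CE. Ctrl_RT exceeded Ctrl_CE and MetR_CE without overlap, and the 3 other groups overlapped each other. The interaction was 0.89 ± 0.18 (adjusted p = 0.00908), with cold effects of -0.83 ± 0.13 on the control diet and 0.07 ± 0.13 on MetR. Pdia3, the disulfide isomerase that works with calreticulin, had 574, 659 and 1061 CPM in Ctrl_RT, 408, 482 and 628 in MetR_RT, 283, 394 and 476 in Ctrl_CE and 397, 523 and 545 in MetR_CE, with the same groups apart, and an interaction of 0.83 ± 0.17 (adjusted p = 0.00992).

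Dnajb11, a co-chaperone of BiP, had 169, 193 and 280.1 CPM in Ctrl_RT, 99.2, 128 and 173 in MetR_RT, 82.6, 113 and 147 in Ctrl_CE and 113, 148 and 162 in MetR_CE. Ctrl_RT exceeded both cold groups without overlap, and the interaction was 0.90 ± 0.18 (adjusted p = 0.00908). Pgm3, of hexosamine synthesis, differed in form: its levels were 12.6, 15.1 and 24.4 CPM in Ctrl_RT, 9.17, 11 and 15.7 in MetR_RT, 10.4, 14.3 and 19.2 in Ctrl_CE and 17.8, 19.5 and 23.6 in MetR_CE, with MetR_CE above MetR_RT without overlap, so that cold raised it on MetR (0.77 ± 0.14) and not detectably on the control diet (-0.26 ± 0.14). Its interaction was 1.03 ± 0.20 (adjusted p = 0.00699).

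Derl3, of ER-associated degradation, had the largest departure of the list, at a low level, with 4.56, 9.20 and 53.7 CPM in Ctrl_RT, 0.855, 2.47 and 11.6 in MetR_RT, 0.237, 0.559 and 2.63 in Ctrl_CE and 0.773, 2.06 and 5.55 in MetR_CE. Ctrl_RT lay above Ctrl_CE without overlap, and the interaction of 3.20 ± 0.85 (adjusted p = 0.0458) kept its call in 9 of the 28 fits with 1 library left out (2.45 to 3.78, adjusted p up to 0.102). The other called members, named after their values were seen, were Sdf2l1 (1.91 ± 0.40, 0.0116), Creld2 (1.69 ± 0.40, 0.0261), Manf (1.08 ± 0.25, 0.0218), Pdia6 (0.94 ± 0.20, 0.013), Pdia4 (0.90 ± 0.20, 0.0189), Hsp90b1 (0.84 ± 0.21, 0.0337) and Pdia5 (0.62 ± 0.15, 0.0298). Of these, Hsp90b1 kept its call in 19 of the 28 fits with 1 library left out (0.67 to 0.92, adjusted p up to 0.063), and Pdia5 was not called without Ctrl_RT replicate 7 or Ctrl_CE replicate 5 or Ctrl_CE replicate 7 or MetR_CE replicate 7 (24 of 28 such fits, 0.56 to 0.75, adjusted p up to 0.0541).

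One library bears on this group. Ctrl_RT replicate 7 had the highest level of its group in each of the 12 genes, 2399 CPM for Calr where the next Ctrl_RT library had 1664, and 53.7 for Derl3 where the next had 16.6. Without this library 10 of the 12 were still called, Derl3 and Pdia5 were not, and 0 other members gained a call. The same library had 308 CPM of Spp1, a cholangiocyte marker, where the next of its group had 54.2, and the cholangiocyte sum of 9 markers had a range of 68.2 to 347 CPM in Ctrl_RT against 54.0 to 59.4 in Ctrl_CE; the part of this in the result was not tested. Across all 28 fits with 1 library left out the list held 9 to 16 called members.

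The promoters of the called ER genes were searched in the same way for the ER stress response element, CCAAT and CCACG separated by any 9 bases, the textbook site of ATF6 with NF-Y. Windows were matched for 11 of the 12 genes; Manf had none. The element was found in 5 of the 11 (45.5%), against 0.16% of the tested genes with a window and 0.119% of all windows. The stretches with the element in capitals, on the strand of the gene, are given because they show the element and its spacing in each of the 5 genes.
Calr (chr8:84847035-84847133, minus strand): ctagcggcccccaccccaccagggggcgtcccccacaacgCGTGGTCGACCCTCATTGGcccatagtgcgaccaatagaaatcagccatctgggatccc
Creld2 (chr15:88819480-88819578, plus strand): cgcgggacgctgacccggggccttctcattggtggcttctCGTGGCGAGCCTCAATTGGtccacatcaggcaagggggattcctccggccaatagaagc
Derl3 (chr10:75893202-75893300, plus strand): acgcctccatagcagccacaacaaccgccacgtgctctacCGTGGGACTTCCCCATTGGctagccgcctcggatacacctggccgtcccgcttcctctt
Hsp90b1 (chr10:86705493-86705694, minus strand): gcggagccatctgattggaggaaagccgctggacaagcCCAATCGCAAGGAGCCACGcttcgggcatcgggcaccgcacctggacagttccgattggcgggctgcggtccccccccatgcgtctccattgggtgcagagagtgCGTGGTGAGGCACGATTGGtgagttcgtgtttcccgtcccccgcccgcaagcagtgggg
Pdia6 (chr12:17266451-17266549, plus strand): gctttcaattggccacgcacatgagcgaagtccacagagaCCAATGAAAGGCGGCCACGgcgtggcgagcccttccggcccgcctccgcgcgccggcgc
The element began 162 bases before the start in Calr, 126 in Creld2, 156 in Derl3 and 98 in Pdia6, and Hsp90b1 held 2, beginning 212 and 107 bases before it. The list was written to hold unfolded protein response targets, so the high share is a property of its members and not a result of this experiment. Among the 17 genes of the glutathione and NRF2 lists with a window, 0 held this element.

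In the methionine cycle and methyl transfer, 3 of 48 tested genes were positive and 0 negative (6.25%), with a median of -0.06. Bhmt, which remethylates homocysteine to methionine with betaine, had 1337, 2009 and 3016 CPM in Ctrl_RT, 581, 935 and 1328 in MetR_RT, 1510.3, 1847 and 2477 in Ctrl_CE and 1713, 1921 and 2464 in MetR_CE. MetR_RT lay below every library of the other groups, and these overlapped each other. MetR lowered it at room temperature (-1.12 ± 0.18) and not detectably in the cold (0.11 ± 0.18), and the interaction was 1.23 ± 0.25 (adjusted p = 0.00937). Selenbp2, of the family that oxidises methanethiol, had 128, 829 and 1099 CPM in Ctrl_RT, 15.6, 27.6 and 47.2 in MetR_RT, 4.10, 36.2 and 63.8 in Ctrl_CE and 4.91, 12.6 and 32.5 in MetR_CE. Ctrl_RT lay above all other libraries, and these overlapped. The interaction was 3.40 ± 0.68 (adjusted p = 0.00908), beside effects of -4.28 for cold on the control diet and -4.56 for MetR at room temperature, both called. Selenbp2 and Selenbp1 are near-identical copies, and their reads may not be separable.

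Among male-biased genes, which depend on the pulsed secretion of growth hormone, 2 of 35 were positive and 0 negative, with a median of 0.40: Selenbp2 and Cyp7b1. Cyp7b1, an oxysterol hydroxylase of the alternative pathway of bile acid synthesis, had 284, 617 and 835 CPM in Ctrl_RT, 192, 254 and 336 in MetR_RT, 154, 240.0 and 426 in Ctrl_CE and 268, 292 and 594 in MetR_CE. All groups overlapped, and the interaction was 1.54 ± 0.32 (adjusted p = 0.01). Of 24 female-biased genes tested, 11 had a mean of at least 1 CPM, so their median takes in many values near the floor. They had 0 calls with edgeR (8 with an unadjusted p under 0.05, 2 calls by DESeq2, 0 by limma voom), a median of -1.09 and 18 members below 0. An example is Slc22a27, a transporter, with 0, 0.0646 and 0.187 CPM in Ctrl_RT, 0.104, 0.372 and 0.870 in MetR_RT, 0.285, 0.942 and 1.46 in Ctrl_CE and 0.385, 0.714 and 2.00 in MetR_CE and -2.38 ± 0.74 (adjusted p = 0.0921). In bile acid synthesis and transport, 2 of 29 were positive, Cyp7b1 and Slc22a7. Slc22a7, an organic anion transporter, had 143, 208 and 222 CPM in Ctrl_RT, 26.5, 48.1 and 58 in MetR_RT, 109, 175 and 238 in Ctrl_CE and 54.1, 113 and 137 in MetR_CE, with MetR_RT below both control groups without overlap and an interaction of 1.22 ± 0.26 (adjusted p = 0.0116).

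Targets of ATF4 were called in both directions. Of 44 tested, 2 were positive and 3 negative, and 35 lay below 0, with a median of -0.28. Vldlr, the VLDL receptor, had 0.580, 0.896 and 1.66 CPM in Ctrl_RT, 5.83, 10.5 and 12.9 in MetR_RT, 2.09, 3.03 and 3.43 in Ctrl_CE and 6.09, 8.48 and 10.6 in MetR_CE. Its 4 groups were apart except that the MetR groups overlapped each other, and its interaction was -1.79 ± 0.28 (adjusted p = 0.00174). Slc3a2, the heavy chain of amino acid exchangers (-0.78 ± 0.18, 0.0195), and the apoptosis gene Bbc3 (-1.31 ± 0.29, 0.0157) were negative as well. Of the positive genes, Avil (2.66 ± 0.64, 0.028) encodes an actin-binding protein, and is named after its values were seen. It had group medians of 0.208 to 0.786 CPM and was called under 5 of 9 other alternatives, and it was not called without Ctrl_CE replicate 7 or MetR_CE replicate 2 or MetR_CE replicate 7 (25 of 28 such fits, 2.42 to 2.85, adjusted p up to 0.0534). Eif4ebp3, an inhibitor of translation initiation, was positive, with 4.65, 10.9 and 16.5 CPM in Ctrl_RT, 2.32, 4.26 and 5.69 in MetR_RT, 1.07, 1.95 and 9.78 in Ctrl_CE and 6.30, 7.14 and 9.87 in MetR_CE. Only MetR_RT and MetR_CE were apart, and the interaction was 2.60 ± 0.46 (adjusted p = 0.00395).

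Of 29 glucocorticoid targets, 3 were negative and 1 positive, with a median of -0.19. Serpina6, corticosteroid-binding globulin, had 77.3, 82.9 and 147 CPM in Ctrl_RT, 253, 338 and 462 in MetR_RT, 130.4, 210.0 and 241 in Ctrl_CE and 269, 288 and 320.1 in MetR_CE. MetR_RT and MetR_CE lay above both control groups, which overlapped, and the interaction was -1.28 ± 0.21 (adjusted p = 0.00222). The kinase gene Pim1 had 22.4, 34.4 and 42.4 CPM in Ctrl_RT, 27.8, 35.2 and 42.3 in MetR_RT, 21.4, 33.4 and 39.96 in Ctrl_CE and 14.4, 17.5 and 20.6 in MetR_CE. MetR_CE lay below all other libraries, and the interaction was -0.97 ± 0.20 (adjusted p = 0.00908). Errfi1, an inhibitor of EGF receptor signalling, was positive, with 1053, 1256 and 1367 CPM in Ctrl_RT, 269, 576 and 1145 in MetR_RT, 565, 892 and 1924 in Ctrl_CE and 1014, 1275 and 1412 in MetR_CE. All groups overlapped, and its interaction of 1.36 ± 0.34 (adjusted p = 0.0367) kept its call in 19 of the 28 fits with 1 library left out (1.24 to 1.6, adjusted p up to 0.0616).

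In ferritin and iron handling, 3 of 21 were negative and 0 positive, with a median of -0.13. Ftl1, the ferritin light chain, had 1549, 1714 and 2435 CPM in Ctrl_RT, 2493, 2841 and 3521 in MetR_RT, 1819, 2193 and 2533 in Ctrl_CE and 1962, 2122 and 2473 in MetR_CE, with MetR_RT above Ctrl_RT and MetR_CE without overlap and an interaction of -0.70 ± 0.13 (adjusted p = 0.00699); processed copies of Ftl1 exist, and their reads may not be separable. The iron exporter Slc40a1 (-0.73 ± 0.18, 0.0366) kept its call in 14 of the 28 fits with 1 library left out (-0.83 to -0.63, adjusted p up to 0.0645). Hamp2, a relative of hepcidin, is given with the opposite responses. In the circadian clock, Csnk1e, a kinase of PER proteins, was the only call of 24, with 5.58, 6.82 and 7.47 CPM in Ctrl_RT, 8.26, 9.63 and 10.1 in MetR_RT, 8.05, 9.51 and 12.2 in Ctrl_CE and 8.27, 8.52 and 9.22 in MetR_CE, Ctrl_RT below all other libraries and an interaction of -0.70 ± 0.12 (adjusted p = 0.00244).

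Interferon-stimulated genes leaned the other way, with 4 positive and 1 negative of 41 (12.2%), a median of 0.41 and 5 below 0. Stat2, a transcription factor of the type I interferon response, had 96, 104 and 133 CPM in Ctrl_RT, 60.8, 67.4 and 85.4 in MetR_RT, 68.5, 88.8 and 104 in Ctrl_CE and 78.6, 89.6 and 95.8 in MetR_CE, with Ctrl_RT above both MetR groups without overlap and an interaction of 0.65 ± 0.13 (adjusted p = 0.00908). The mean level of the list was highest in Ctrl_RT replicate 7 (0.46 on the log2 scale, where the Ctrl_RT median was 0.08), and the part of this library was tested only by leaving it out. Stat2 kept its call in all 28 such fits. Without Ctrl_RT replicate 7 the other positive members, Isg15, Ifi27 and Iigp1, were not called, whereas the negative Gbp2b was. Isg15 (1.14 ± 0.30, 0.0452) kept its call in 8 of the 28 fits with 1 library left out (0.95 to 1.27, adjusted p up to 0.0854), Ifi27 (0.84 ± 0.22, 0.0412) kept its call in 10 of the 28 fits with 1 library left out (0.70 to 0.95, adjusted p up to 0.0693), and Iigp1, named after its values were seen (0.62 ± 0.17, 0.0492), kept its call in 8 of the 28 fits with 1 library left out (0.55 to 0.74, adjusted p up to 0.0783). The negative member, the GTPase gene Gbp2b (-1.71 ± 0.45, 0.0442), kept its call in 9 of the 28 fits with 1 library left out (-1.85 to -1.36, adjusted p up to 0.0798).

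In gluconeogenesis, glycolysis and insulin or glucagon targets, 2 of 36 were positive, the ketone body transporter Slc16a6 (0.98 ± 0.21, 0.013) and trehalase, Treh (1.24 ± 0.30, 0.0313), and 2 were negative, the peptidase Enpep (-0.86 ± 0.18, 0.0106) and the immediate early gene Nr4a1. Nr4a1 had 1.02, 1.61 and 5.30 CPM in Ctrl_RT, 1.04, 6.34 and 32.2 in MetR_RT, 1.07, 2.35 and 7.83 in Ctrl_CE and 1.0, 1.52 and 2.69 in MetR_CE, with overlap of all groups, and its interaction of -3.25 ± 0.83 (adjusted p = 0.0394) kept its call in 12 of the 28 fits with 1 library left out (-3.55 to -2.61, adjusted p up to 0.0697). Treh kept its call in 23 of the 28 fits with 1 library left out (1.12 to 1.37, adjusted p up to 0.0541). None of these 4 is a rate-limiting enzyme of glucose production. Acute phase proteins had 1 positive call of 37, the serpin gene Serpina3k (0.72 ± 0.17, 0.0296), and 1 negative, Hamp2. Serpina3k was not called without Ctrl_CE replicate 2 or Ctrl_CE replicate 7 or MetR_CE replicate 3 (25 of 28 such fits, 0.66 to 0.78, adjusted p up to 0.0541). Of 79 cytosolic ribosomal proteins, 1 was called, Rps29 (0.63 ± 0.15, 0.0224), which was not called without MetR_RT replicate 2 (27 of 28 such fits, 0.57 to 0.72, adjusted p up to 0.042), and the median was 0.09.

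**Figure D5:**
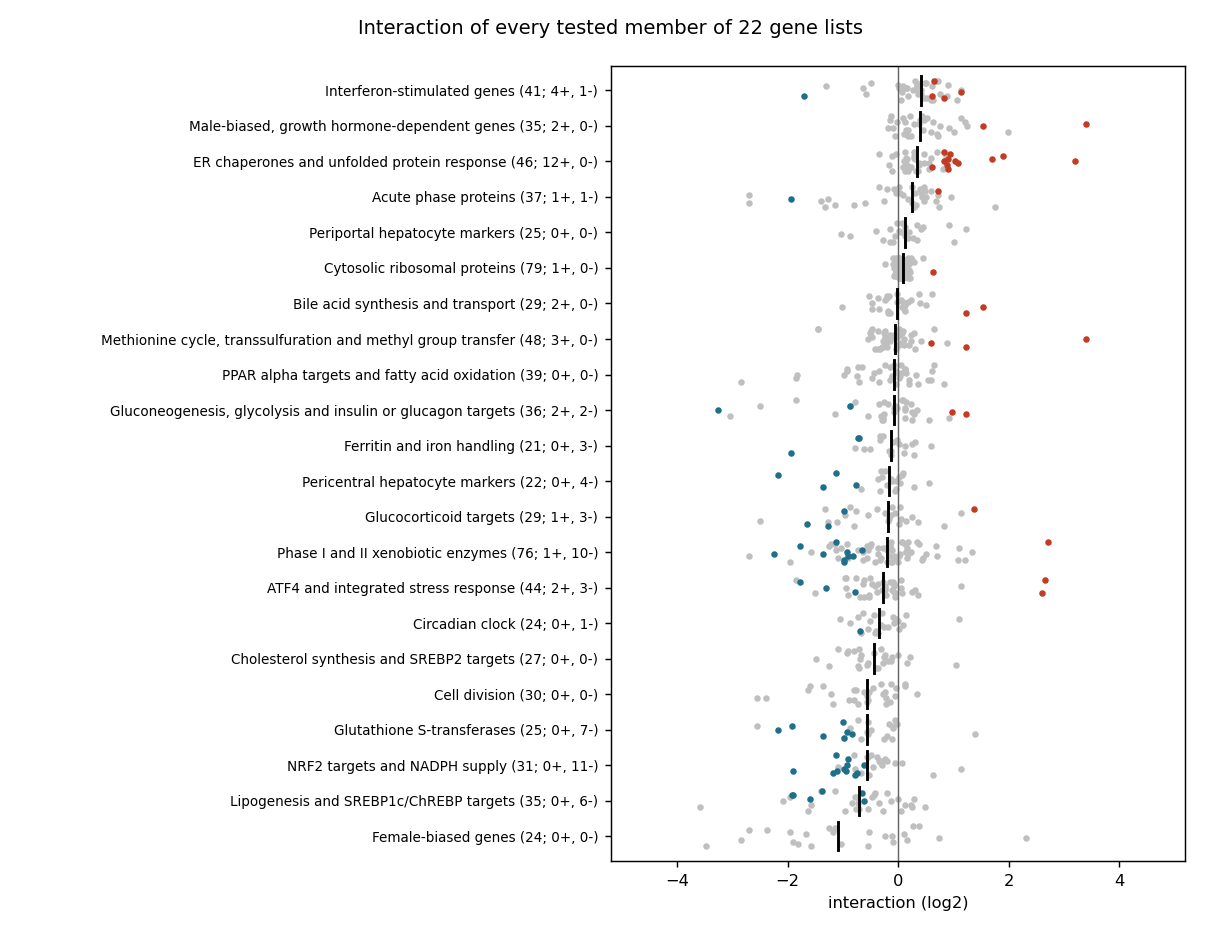
Interaction (log2) of every tested member of 22 gene lists, ordered by the list's median (black bar), with called members in red (positive) or blue (negative) and the others in grey; the numbers in brackets give the genes tested and the positive and negative calls. The called members of the glutathione S-transferase, NRF2 and lipogenesis lists lie on the left, and those of the ER chaperone list on the right.

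For 8 genes the response to cold was called on both diets in opposite directions: Gstm1, Gstm3, Eif4ebp3, Vtcn1, Hamp2, Gm15622, Cyp2c55 and Fst. Hamp2 had 0.896, 2.45 and 5.82 CPM in Ctrl_RT, 9.07, 14.2 and 18.6 in MetR_RT, 2.52, 5.54 and 11 in Ctrl_CE and 5.09, 7.32 and 10.7 in MetR_CE. Only Ctrl_RT and MetR_RT were apart, and cold effects were 1.12 ± 0.30 on the control diet and -0.82 ± 0.27 on MetR, with an interaction of -1.94 ± 0.40 (adjusted p = 0.0113). Fst, follistatin, which binds activins, had 2.76, 7.81 and 8.72 CPM in Ctrl_RT, 2.89, 5.42 and 10.8 in MetR_RT, 5.62, 9.96 and 16.6 in Ctrl_CE and 2.46, 3.05 and 4.50 in MetR_CE. Ctrl_CE lay above MetR_CE without overlap, and the interaction was -1.66 ± 0.39 (adjusted p = 0.0241). Cyp2c55 (-1.78 ± 0.40, 0.0171), Vtcn1 (-2.31 ± 0.46, 0.00908) and Gm15622 (3.38 ± 0.75, 0.0165) had group medians between 0.260 and 2.18 CPM.

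The largest negative departure was that of Chrna4, a subunit of nicotinic acetylcholine receptors, with 0.250, 1.40 and 6.84 CPM in Ctrl_RT, 0.0295, 1.41 and 8.94 in MetR_RT, 3.91, 19.3 and 44.4 in Ctrl_CE and 0.446, 0.902 and 3.62 in MetR_CE. Ctrl_CE lay above MetR_CE without overlap, and the Ctrl_CE libraries spread widely. The interaction of Chrna4 was -4.76 ± 1.05 (adjusted p = 0.0168). It was called under 6 of 9 other alternatives and lost its call with the replicate number as a block (-4.30, adjusted p = 0.0534), with limma voom (-3.68, adjusted p = 0.211) and with apeglm shrinkage, where its log2 value was -0.043. Rwdd2a, at -2.44 ± 0.49 (0.00908), had group medians of 0.624 to 2.85 CPM.

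The lists covered 78 of the 234 called genes, and 156 belonged to none. Of these, Serpine2, a serine protease inhibitor, had the smallest p among positive genes, with 16.4, 20.6 and 37.6 CPM in Ctrl_RT, 4.95, 8.26 and 8.93 in MetR_RT, 6.16, 9.07 and 11.3 in Ctrl_CE and 5.48, 6.96 and 11.2 in MetR_CE. Ctrl_RT lay above all other libraries, and the interaction was 1.48 ± 0.26 (adjusted p = 0.0038). The homeodomain gene Hopx (0.91 ± 0.17, 0.00591), Aadat of tryptophan and lysine catabolism (0.88 ± 0.18, 0.00908), Chid1 (0.79 ± 0.15, 0.00699) and the non-coding or predicted genes Gm30262 (0.99 ± 0.18, 0.0045) and C730036E19Rik (1.48 ± 0.27, 0.00553) had their highest median in Ctrl_RT too. Dtx3l, a ubiquitin ligase, instead rose in the cold on MetR, and its interaction of 0.59 ± 0.11 (adjusted p = 0.00699) stood at the fold threshold and kept its call in 16 of the 28 fits with 1 library left out (0.53 to 0.65, adjusted p up to 0.0165).

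On the negative side, Mnt, a repressor that pairs with MAX, had 10.8, 15.2 and 16.1 CPM in Ctrl_RT, 18.2, 21.6 and 28.2 in MetR_RT, 16.3, 28 and 31.2 in Ctrl_CE and 13.7, 17.1 and 20.2 in MetR_CE. Ctrl_RT lay below Ctrl_CE and MetR_RT without overlap and overlapped MetR_CE, and the interaction was -1.14 ± 0.19 (adjusted p = 0.00244). Creg1, a lysosomal glycoprotein, had 289, 322 and 466 CPM in Ctrl_RT, 689, 761 and 876 in MetR_RT, 446, 503 and 598 in Ctrl_CE and 656, 693 and 715 in MetR_CE, with both MetR groups above both control groups and an interaction of -0.71 ± 0.12 (adjusted p = 0.00244).

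Several lists had 0 calls with the edgeR test. Of PPAR alpha targets and fatty acid oxidation genes, 0 of 39 were called and 10 had an unadjusted p under 0.05, with a median of -0.07, and DESeq2 and limma voom called 4 each. Cpt1a, the entry step of mitochondrial fatty acid oxidation, had 239, 353 and 395 CPM in Ctrl_RT, 169, 327 and 373 in MetR_RT, 496, 516 and 624 in Ctrl_CE and 637, 739.9 and 872 in MetR_CE. MetR_CE lay above every other library and Ctrl_CE above both room-temperature groups, and the interaction was 0.65 ± 0.18 (adjusted p = 0.0585). Of 30 cell division genes, 0 were called by edgeR, DESeq2 or limma voom, 8 had an unadjusted p under 0.05, and the median was -0.56. Only 13 of the 30 had a mean of at least 1 CPM. Of 25 periportal hepatocyte markers, edgeR and limma voom called 0 and DESeq2 2, 7 had an unadjusted p under 0.05, and the median was 0.12. Of 22 pericentral markers, 4 were negative, namely Gstm3, Cyp2a5, Cyp2c29 and the WNT inhibitor Nkd1 (-0.76 ± 0.19, 0.0347), which kept its call in 15 of the 28 fits with 1 library left out (-0.85 to -0.69, adjusted p up to 0.0618).

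Most markers of stellate, endothelial and Kupffer cells, of lymphocytes, and of neutrophils and erythroid cells lay below 0. Of these only 2 stellate cell genes were called. All 16 stellate cell markers lay below 0, with a median of -0.58, and 2 were called, Colec10 and Ednra. The endothelin receptor Ednra (-0.99 ± 0.24, 0.0312) kept its call in 21 of the 28 fits with 1 library left out (-1.14 to -0.91, adjusted p up to 0.0572). Colec10, a collectin, had 9.68, 15.3 and 21.7 CPM in Ctrl_RT, 21, 23.6 and 25.7 in MetR_RT, 32.1, 39 and 42.3 in Ctrl_CE and 30.5, 32.8 and 35.3 in MetR_CE and an interaction of -0.91 ± 0.15 (adjusted p = 0.00244). The summed level of the 16 was 202 to 507 CPM in Ctrl_RT, 476 to 689 in Ctrl_CE, 357 to 510 in MetR_RT and 413 to 550 in MetR_CE, and none of the 16 was at 0 in all libraries. All 14 endothelial markers lay below 0, with a median of -0.39, 0 calls by edgeR, DESeq2 or limma voom and 10 with an unadjusted p under 0.05. In the cold 14 rose on the control diet and 9 on MetR, beside 1612 and 609 of all genes tested. With edgeR, Oit3 (-0.56, adjusted p = 0.00908) and Fcgr2b (-0.49, 0.0157) passed the adjusted p and missed only the fold threshold. The sum of the 14 was 305 to 421 CPM in Ctrl_RT, 515 to 818 in Ctrl_CE, 412 to 506 in MetR_RT and 701 to 788 in MetR_CE. The 14 Kupffer cell markers, all below 0 and as low as -3.02 for Marco (adjusted p = 0.163), had a median of -0.41, 0 calls by these tools and 4 with an unadjusted p under 0.05, and their sum was 422 to 598 CPM in Ctrl_RT, 390.2 to 1595 in Ctrl_CE, 205 to 394 in MetR_RT and 355 to 424 in MetR_CE. The part that these cells had in the negative interactions was not tested. Of 14 lymphocyte markers, which summed to 11.8 to 87.4 CPM over all libraries, 13 lay below 0 with a median of -0.96, 0 were called by these tools and 6 had an unadjusted p under 0.05. Only 3 of the 14 had a mean of at least 1 CPM. Of 12 neutrophil and erythroid markers, 11 lay below 0 with a median of -0.57, and 0 had an unadjusted p under 0.05. A mean of at least 1 CPM was reached by 7 of these 12. Below 0 lay 4 of 9 cholangiocyte markers and 1 of 7 pancreas, gut and adipocyte markers. The 9 hepatocyte markers had a median of 0.21, with 0 calls by edgeR or DESeq2, 1 by limma voom and 5 at an unadjusted p under 0.05. Serpina1a (0.30, adjusted p = 0.0483 with edgeR) passed the adjusted p and missed only the fold threshold.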

How the data were processed

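Liver RNA was sequenced by the authors as 2 by 50 base paired-end polyA libraries, 1 per mouse. The processing notes name mm10, STAR 2.7.9a, featureCounts 2.0.3, Salmon 1.9.0, MultiQC 1.19 and DESeq2 1.46.0, and the deposited liver table credits Salmon; strandedness was not given in the sources used here. The authors deposited raw counts for 56884 genes as whole numbers, and of the 22143 genes with at least 10 counts in total, 21235 were named by the reference tables. Counts were fitted without further filters in R 4.3.3 with edgeR 4.0.16 (TMM factors, quasi-likelihood F test, 1 mean per group), and all contrasts came from this fit. A call required an adjusted p (Benjamini-Hochberg) under 0.05 and a change of at least 1.5-fold, and errors are the log2 change divided by the square root of F. Normalised CPM used effective library sizes.

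All 28 libraries came from separate mice. Replicate numbers did not pair the samples: over 42 same-numbered pairs the correlation of deviations from the group means had a median of -0.00296 and exceeded 0.1 in 4. Gene lists are described by counts and medians with no test. The lists, and the comparison itself, were chosen with earlier results of these data known. Genes are named where they had the 12 smallest p or the 4 largest departures in a direction (mean CPM of at least 1), opposite cold responses, or up to 4 called members of a list (up to 2 by p in a list with none); others are said to be named after their values were seen. Alternatives used limma 3.58.1 (voom with quality weights), DESeq2 1.42.0 and apeglm 1.24.0. Counts were simulated for 21696 genes with the means of an additive diet and temperature fit, the library sizes and the trended dispersion. Interactions were put into MetR_CE alone, in genes with a mean of at least 1 CPM. Of these, 72% of 100 of 1.75-fold and 90% of 100 of 2.5-fold were called, with 5 false calls. The spread of single genes and outlying libraries were not simulated, so these rates need not hold for the real data. No column of the liver table was left out, and some list members are not reported here. Promoter sequences are from RefSeq, GRCm38.p6.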

Additional observations from a re-analysis of the deposited data

Results flagged for a closer look

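For 8 genes, cold had a called effect in opposite directions on the 2 diets, with interactions of -1.36 for Gstm1, -2.17 for Gstm3, 2.60 for Eif4ebp3, -2.31 for Vtcn1, -1.94 for Hamp2, 3.38 for Gm15622, -1.78 for Cyp2c55 and -1.66 for Fst (log2, edgeR quasi-likelihood test of the difference itself).

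Among 360 groups of 7 libraries, 29 held a library whose gap to the nearest of its group exceeded Dixon's limit. Chance exceeds this limit in about 1 in 20 groups only for independent, normally distributed values. Here the values were CPM without a log, from named genes that share libraries and lists. The chance rate is therefore not known, and the count per library depends on which genes were named. Ctrl_RT replicate 7 was the most frequent, being high for 6 genes: Calr (2399 CPM), Pdia3 (1061), Dnajb11 (280.1), Derl3 (53.7), Apoa4 (636) and Spp1 (308). MetR_RT replicate 3 was high for Me1 (1066), Elovl6 (413) and Apoa4 (269). MetR_CE replicate 2 was high for Cyp7b1 (594), Chrna4 (3.62) and Derl3 (5.55). MetR_CE replicate 4 was high for Tkt (314) and Nkd1 (12) and low for Pdia3 (397).

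Ctrl_RT replicate 5 was high for Me1 (408) and Tkt (184), and Ctrl_RT replicate 6 was high for Marco (27.3) and low for Etnppl (28.2). Ctrl_RT replicate 1 was high for Gm30262 (46.4) and low for Lpcat3 (73). Ctrl_CE replicate 4 was high for Eif4ebp3 (9.78) and for the neutrophil marker S100a9 (22.1), Ctrl_CE replicate 2 for Gbp2b (7.83) and Ctrl_CE replicate 3 for Derl3 (2.63). MetR_CE replicate 3 was high for Gm15622 (2.89) and Nr4a1 (2.69), while MetR_CE replicates 6 and 7 were low for Sox9 (1.57) and Creg1 (656).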

How the results depend on the processing

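Against 83 positive and 151 negative genes, the counts were 129 and 175 with the filterByExpr filter (13748 genes tested), 145 and 244 without the fold threshold, 166 and 245 with limma voom, 145 and 266 with DESeq2 without shrinkage, and 0 and 0 with edgeR's glmTreat, which tests against the 1.5-fold threshold itself (869 genes at an unadjusted p under 0.05). They were 87 and 140 with RLE size factors, 71 and 135 without a filter on low counts, 67 and 140 with robust dispersions, 103 and 198 with apeglm, and 59 and 118 without the library under 10000000 counts. With 1 library left out they ranged from 39 to 151 and from 88 to 250, highest without Ctrl_CE replicate 4 and lowest without Ctrl_CE replicate 7. The replicate number as a block gave 60 and 115, of which 54 and 109 were among the main calls; a sample matched its own number best in 8 of 84 comparisons, so the numbers do not pair the mice.

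Of the 222 called genes with a DESeq2 adjusted p (12 had none), 116 were called under all of 9 other alternatives and 96 of these also with any 1 library left out; glmTreat and the fit without a fold threshold are not among the 9. The named called genes kept their direction in every alternative run and lost their call in 33 pairs of gene and alternative (570 kept it) and, with 1 library left out, in 186 pairs (1690 kept it). Their direction could hardly change, since they were selected by p and size from the same libraries. The one sign change was in the interaction of Vil1, never called, which ranged from -0.0419 (without Ctrl_RT replicate 4) to 0.61 (without Ctrl_CE replicate 6). Depth limits genes near 1 CPM, where libraries of 6987895 to 33444374 counts hold few reads. The causes were not tested.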
